A study of Saccharomyces cerevisiae with 6 samples.

Results

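Transcript signals of 32 genes of aminoacyl-tRNA synthetases, out of 5656 genes measured, were compared between pterostilbene-treated and solvent-treated yeast cells. The genes were taken by name from a list, with no measured value in the rule. The list held 19 genes of the cytosolic enzymes, including the cofactor gene *ARC1*, and 13 genes of the mitochondrial enzymes. On the array each of the 32 genes had 1 probe set, that is 1 set of oligonucleotides matching its transcript, and all 32 were measured without any filter on low signals.

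An aminoacyl-tRNA synthetase joins an amino acid to its matching tRNA, and the charged tRNA carries the amino acid to the ribosome. Yeast has separate ribosomes in the cytosol and in mitochondria. The mitochondrial ribosomes make a few membrane proteins of the respiratory chain and the ATP synthase, while nearly all of their helpers, the mitochondrial synthetases among them, are encoded in the nucleus and imported. For most amino acids a different gene encodes the enzyme of each compartment. *ALA1*, *GRS1*, *HTS1* and *VAS1*, listed here as cytosolic, are known to make both forms from a single gene.

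The arrays carried RNA of *S. cerevisiae* S288C, which is haploid and of mating type alpha. Of 6 arrays, 3 came from independent cultures given 70 μM pterostilbene, a plant stilbene that inhibits fungal growth, and the other 3 from separate cultures that received 0.25% of the solvent dimethyl sulfoxide (DMSO). All cultures grew in buffered minimal medium with glucose and without added amino acids, and were collected once they reached a set density. The compound was added from a concentrated stock in DMSO, and the share of DMSO in the treated cultures is not listed. As described, that addition brings less DMSO than the controls received, so the solvent may not have been matched. The dose had been chosen for its inhibition of growth. The effects of the compound, of slower growth, of the time of harvest and of a difference in solvent cannot be told apart. Markers of mating type alpha fitted the strain in the controls, where *MF(ALPHA)1* averaged a signal of 12450. All 4 such markers were lower with pterostilbene, where *MF(ALPHA)1* averaged 5060 (log2 difference -1.3). The falls were far deeper in *STE3* (-3.1), *SAG1* (-4.2) and *MF(ALPHA)2* (-4.7), which averaged 209.7, 233.7 and 69.3 with pterostilbene and 1748, 4360 and 1819 in the controls. Among markers of mating type a, *AGA2*, *STE2* and *BAR1* averaged between 14.4 and 47.9 in both groups. *BAR1* was higher with pterostilbene (log2 difference 1.77, adjusted p = 0.0207) and *STE2* lower (-0.95, adjusted p = 0.0345). Probe sets without yeast sequence reached signals of 40.9 on the pterostilbene arrays and 36.6 on the control arrays. *AGA2*, *STE2* and *BAR1* lay near or within that range. The calls of *BAR1* and *STE2* were each lost under some of the other scalings described below. *MFA1* averaged 524.2 with pterostilbene and 241.4 in the controls (1.11, adjusted p = 0.00293), and *MFA2* and *AGA2* did not pass the test. The RNA is that of whole cultures, in which less transcript per cell and fewer cells with the transcript cannot be told apart.

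The values are signals on a linear intensity scale, and differences between the groups are log2 differences, pterostilbene minus control, with their standard error (SE). A gene was called higher or lower where the p-value of limma, adjusted over 9275 probe sets, lay below 0.05. The trimmed mean signal was 500.4 to 500.5 on every array, whereas the median signal was 161.6 to 170.2 on the pterostilbene arrays and 119.1 to 123.4 on the control arrays. Over all genes the median log2 difference was 0.22, and each direction below is relative to the other transcripts on the array. Correlations of log2 signals were 0.967 to 0.975 among pterostilbene arrays, 0.965 to 0.969 among control arrays and 0.914 to 0.924 across them. The poly-A controls, bacterial transcripts supplied with labelling kits, were 3.79-fold higher on the pterostilbene arrays and probe sets of ribosomal RNA 6.81-fold higher, whereas hybridization controls differed by 1.06-fold. The log2 ratio of the 3' to the 5' probe set of *ACT1*, a sign of RNA integrity, was 0.59, 0.54 and 0.49 with pterostilbene and 0.44, 0.03 and 0.33 in the controls, without overlap, while that of *SPT15* was 1.26 to 1.42 with pterostilbene and 1.2 to 2.2 in the controls. The part of these shifts in the results was not tested.

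Most cytosolic synthetase genes fell, while mitochondrial ones either rose or did not pass the test. Of the 19 cytosolic genes, 17 fell with pterostilbene, none rose, and *CDC60* and *ILS1* did not pass the test. Of the 13 mitochondrial genes, 7 rose and none fell, while 6 did not pass. The share of cytosolic genes that fell was 89.5%, where 18.4% of all genes fell, and the share of mitochondrial genes that rose was 53.8%, where 35.8% of all genes rose. The median log2 difference was -0.61 over the cytosolic list and 0.72 over the mitochondrial list. The mitochondrial median was that of *MSR1*, the smallest of the 7 rises, and the next gene below it, *ISM1*, had 0.26. Differences ran from -1.0 to 0.15 in the cytosolic list and from -0.16 to 1.68 in the mitochondrial list, so that the lists overlapped between -0.16 and 0.15.

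**Figure D1:**
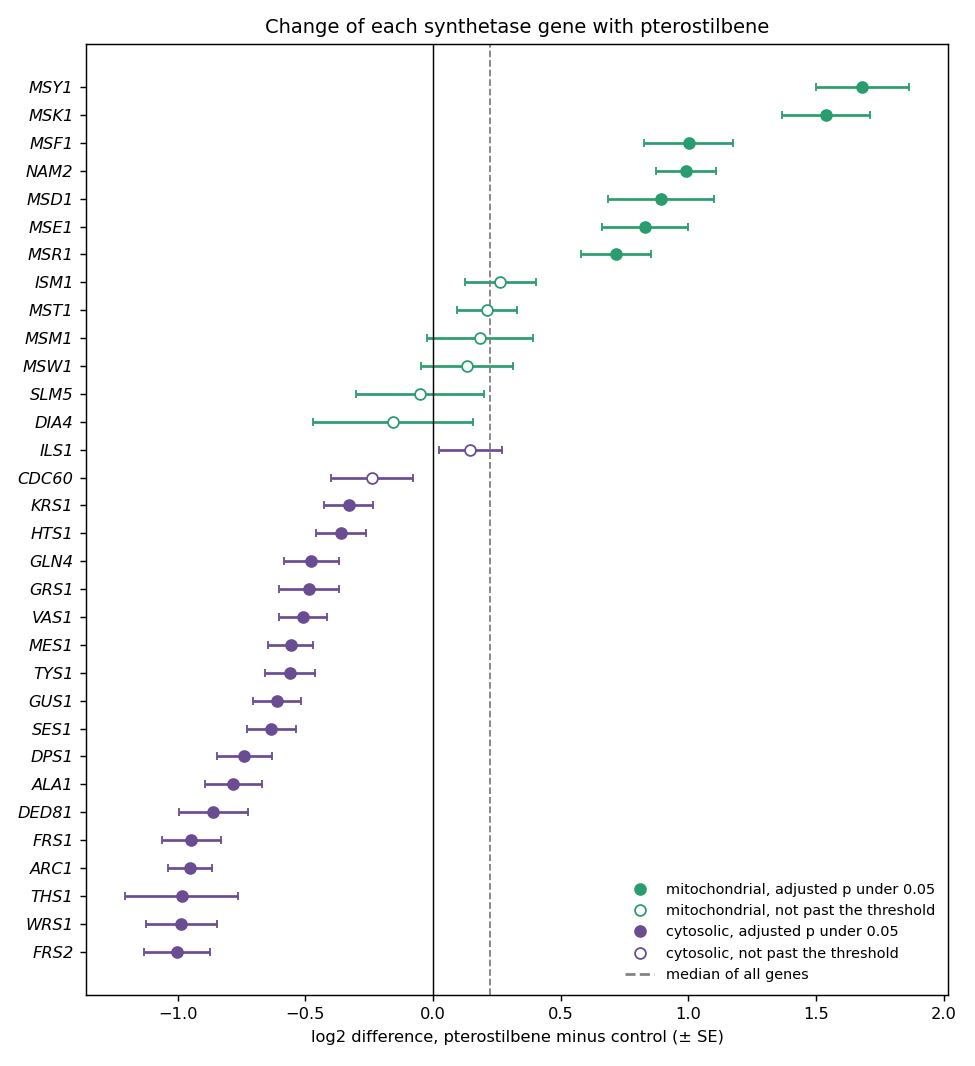
Log2 difference of each synthetase gene, pterostilbene minus control, with its SE, for the mitochondrial list (green) and the cytosolic list (purple). Filled points passed the test, and the dashed line is the median of all genes at 0.22. All 7 filled mitochondrial points lie to the right of this line and all 17 filled cytosolic points to the left of 0.

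Among the mitochondrial enzymes the largest rises were those of the tyrosine and lysine enzymes. *MSY1*, the mitochondrial tyrosyl-tRNA synthetase, had signals of 153, 178 and 183 on the pterostilbene arrays A, B and C, against 63.1, 56.8 and 42.2 on the control arrays. Every treated culture was above every control by more than 2-fold, with a log2 difference of 1.68 (SE 0.18, adjusted p = 0.00125), which is 3.2-fold. *MSK1*, the mitochondrial lysyl-tRNA synthetase, gave 504, 465 and 529 with pterostilbene and 167, 142 and 213 in the controls, a 2.90-fold rise with a log2 difference of 1.54 (SE 0.17, adjusted p = 0.00138). The groups were again far apart, and these genes rose at least 2-fold, as 18.4% of all genes did.

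The phenylalanine and leucine enzymes followed at about 2-fold. Signals of *MSF1*, the mitochondrial phenylalanyl-tRNA synthetase, were 83.3, 84.6 and 102 with pterostilbene and 36.1, 48.4 and 51.2 in the controls, with a log2 difference of 1.0 (SE 0.17, adjusted p = 0.00607). For *NAM2*, the mitochondrial leucyl-tRNA synthetase, which also takes part in the splicing of mitochondrial introns, the treated cultures gave 152, 156 and 168 and the controls 90.1, 75.7 and 74.1, with a log2 difference of 0.99 (SE 0.12, adjusted p = 0.00171). The control signals of *MSF1* lay near 40.9 and 36.6, the highest signals that probe sets without yeast sequence reached on the pterostilbene and on the control arrays, so its fold rests in part on dim spots. Those of *NAM2* lay above that level on every array. The control signals of *MSY1*, 63.1, 56.8 and 42.2, also lay above it, the lowest of them only just. The 3.2-fold rise of *MSY1* thus rests in part on dim spots as well.

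Rises under 2-fold were measured for the enzymes of aspartate, glutamate and arginine. *MSD1*, the mitochondrial aspartyl-tRNA synthetase, had 251, 245 and 328 with pterostilbene and 118, 147 and 182 in the controls, with a log2 difference of 0.89 (SE 0.21, adjusted p = 0.0163). *MSE1*, the mitochondrial glutamyl-tRNA synthetase, had 110.3, 116 and 149 with pterostilbene and 75.2, 75.2 and 59.7 in the controls, with a log2 difference of 0.83 (SE 0.17, adjusted p = 0.0102). *MSR1*, the mitochondrial arginyl-tRNA synthetase, had 498, 611 and 641 with pterostilbene and 336, 338 and 387 in the controls, with a log2 difference of 0.72 (SE 0.14, adjusted p = 0.00853). In all of these genes the lowest treated culture was above the highest control, and the controls of *MSD1* spread the most.

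The other 6 mitochondrial genes did not pass the test. *ISM1*, the isoleucine enzyme, gave 150.3, 155 and 198 with pterostilbene and 146, 130.1 and 140.4 in the controls, with a log2 difference of 0.26 (SE 0.14, adjusted p = 0.175). For *MST1*, the threonine enzyme, the signals were 96.4, 94.7 and 95.9 with pterostilbene and 74.9, 80.4 and 93.7 in the controls, with a log2 difference of 0.21 (SE 0.12, adjusted p = 0.186). In both genes the treated cultures lay just above the controls without overlap, as they did in 9 of the 13 mitochondrial genes and in 44.2% of all genes. *MSM1*, the methionine enzyme, had 151, 147 and 99.4 with pterostilbene and 98.7, 117 and 130.4 in the controls, with a log2 difference of 0.18 (SE 0.21, adjusted p = 0.504), and replicate C of the treated cultures lay among the controls. *MSW1*, the tryptophan enzyme, had 97.6, 90.7 and 99.7 with pterostilbene and 68.6, 92.7 and 105 in the controls, with a log2 difference of 0.13 (SE 0.18, adjusted p = 0.572), and its groups overlapped. The differences of these 4 genes, 0.13 to 0.26, were close to the median of all genes.

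The dimmest members were the enzymes of asparagine and serine. *SLM5*, the mitochondrial asparaginyl-tRNA synthetase, had 39.1, 56.7 and 67.7 with pterostilbene and 57.5, 64.6 and 44.8 in the controls, with a log2 difference of -0.05 (SE 0.25, adjusted p = 0.887). *DIA4*, a probable mitochondrial seryl-tRNA synthetase, had 40.7, 56.9 and 25 with pterostilbene and 44.7, 47.9 and 37.5 in the controls, with a log2 difference of -0.16 (SE 0.31, adjusted p = 0.708). Signals of both genes overlapped between the groups and lay near or within the range of the probe sets without yeast sequence. The sign of the *SLM5* difference turned to 0.17 without pterostilbene replicate A and to 0.07 without control replicate B. That of *DIA4* turned to 0.16 without pterostilbene replicate C, and that of *MSW1* to -0.04 without control replicate A.

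**Figure D2:**
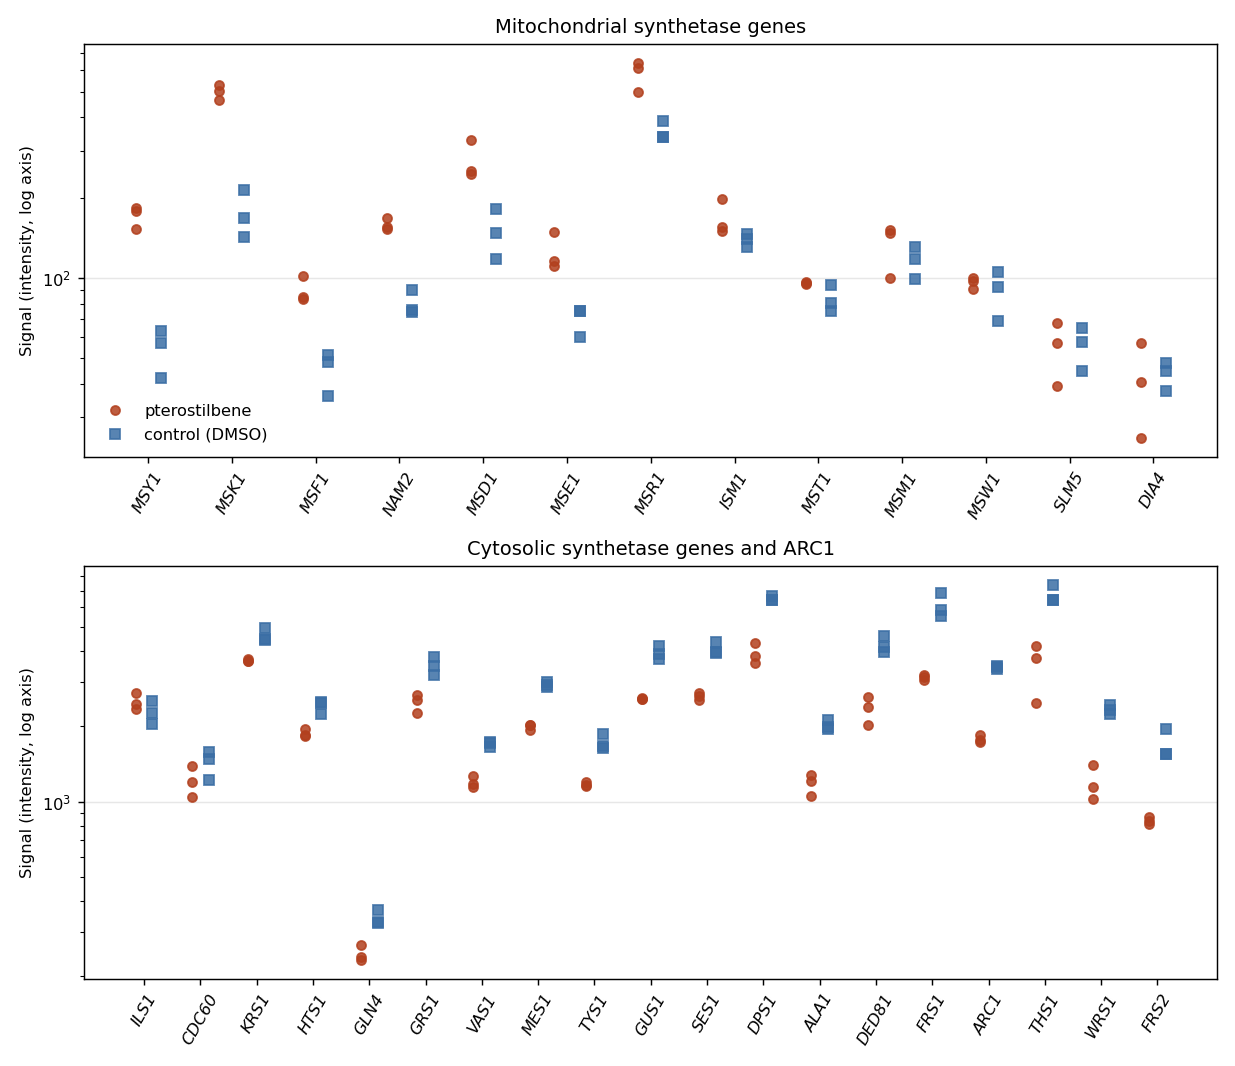
Signal of each synthetase gene on each array, with a log axis, for the mitochondrial list (upper panel) and the cytosolic list (lower panel). Circles are pterostilbene arrays and squares are control arrays, and genes run from the highest log2 difference to the lowest within each panel. In 9 mitochondrial genes all circles lie above all squares, and in 17 cytosolic genes all circles lie below all squares.

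In the cytosol, the genes of phenylalanyl-tRNA synthetase were among those that fell the most. This enzyme is built from an alpha subunit, Frs2p, and a beta subunit, Frs1p, in contrast to the single chain of the mitochondrial enzyme. *FRS2* had signals of 864, 835 and 814 with pterostilbene and 1551, 1551 and 1959 in the controls, with a log2 difference of -1.0 (SE 0.13, adjusted p = 0.00212), and it was the only cytosolic member that fell at least 2-fold, as 4.07% of all genes did. *FRS1* had 3054, 3152 and 3206 with pterostilbene and 5838, 5541 and 6817 in the controls, with a log2 difference of -0.95 (SE 0.11, adjusted p = 0.00175). The treated cultures were tightly grouped in both genes, and within arrays the 2 differences lay 0.06 apart (SE 0.06, exact two-sided permutation p = 0.4). After quantile normalization *FRS2* fell deeper than *FRS1*, by -0.35 on the log2 scale and without overlap of the groups.

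Falls of a like size were found for tryptophan, threonine, asparagine and aspartate. *WRS1*, the cytosolic tryptophanyl-tRNA synthetase, gave 1027, 1144 and 1395 with pterostilbene and 2317, 2438 and 2249.7 in the controls, with a log2 difference of -0.98 (SE 0.14, adjusted p = 0.00301). *THS1*, of threonine, had 3752, 4213 and 2480.3 with pterostilbene and 6399.5, 6417 and 7391 in the controls, with a log2 difference of -0.98 (SE 0.22, adjusted p = 0.0144). The spread of *THS1* came from replicate C of the treated cultures, and without that array the log2 difference was -0.76. *DED81*, of asparagine, had 2399, 2629 and 2020.3 with pterostilbene and 3986, 4142 and 4609 in the controls, with a log2 difference of -0.86 (SE 0.14, adjusted p = 0.00436). *DPS1*, of aspartate, had 3585, 3810.2 and 4302 with pterostilbene and 6394, 6414 and 6658 in the controls, with a log2 difference of -0.74 (SE 0.11, adjusted p = 0.00319). No treated culture reached a control in any of these genes.

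*ARC1* encodes a tRNA-binding cofactor that holds the cytosolic methionine and glutamate enzymes, encoded by *MES1* and *GUS1*, in a complex. All 3 genes fell. *ARC1* had 1725, 1767 and 1854 with pterostilbene and 3488, 3393 and 3453 in the controls, with a log2 difference of -0.95 (SE 0.09, adjusted p = 0.000767). *MES1* had 2023, 2032 and 1936 with pterostilbene and 2942, 2863 and 3011 in the controls, with a log2 difference of -0.56 (SE 0.09, adjusted p = 0.00423). *GUS1* had 2565, 2596 and 2576 with pterostilbene and 3716, 3907 and 4211 in the controls, with a log2 difference of -0.61 (SE 0.09, adjusted p = 0.00402). The fall of the cofactor gene was deeper than that of its partners. Within arrays, *ARC1* minus *MES1* was lower with pterostilbene by a log2 difference of -0.39 (SE 0.05) and *ARC1* minus *GUS1* by -0.34 (SE 0.06). The groups did not overlap in either comparison, and the exact two-sided permutation p was 0.1, the smallest that 3 against 3 arrays can give (0.15 when adjusted over the 6 further pairs compared in this way, all chosen after their values were seen).

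Serine, tyrosine, lysine and glutamine complete the cytosolic genes that fell, leaving aside *ALA1*, *GRS1*, *HTS1* and *VAS1*. *SES1*, of serine, had 2543, 2647 and 2727 with pterostilbene and 4371, 3946 and 3969 in the controls, with a log2 difference of -0.63 (SE 0.10, adjusted p = 0.00373). *TYS1*, of tyrosine, had 1157, 1168 and 1193 with pterostilbene and 1645, 1674 and 1871 in the controls, with a log2 difference of -0.56 (SE 0.10, adjusted p = 0.00612). These falls exceeded the spread in either group several times over. *KRS1*, of lysine, had 3664, 3639 and 3736 with pterostilbene and 4451, 4472 and 4976 in the controls, with a log2 difference of -0.33 (SE 0.10, adjusted p = 0.0338). *GLN4*, of glutamine, had 232, 239 and 266 with pterostilbene and 327, 369 and 329 in the controls, with a log2 difference of -0.48 (SE 0.11, adjusted p = 0.0157). The fall of *KRS1* was the smallest of the 17.

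The 4 genes named above as making both forms all fell, like the cytosolic list they stand in. *ALA1*, of alanine, had 1052, 1209.8 and 1275 with pterostilbene and 1993, 2126 and 1944 in the controls, with a log2 difference of -0.78 (SE 0.11, adjusted p = 0.00321). *VAS1*, of valine, had 1179, 1139 and 1265 with pterostilbene and 1729.8, 1654 and 1708 in the controls, with a log2 difference of -0.51 (SE 0.09, adjusted p = 0.00716). Both genes fell clear of the spread between replicates. *GRS1*, of glycine, had 2268, 2557 and 2673 with pterostilbene and 3800.4, 3480.2 and 3214 in the controls, with a log2 difference of -0.49 (SE 0.12, adjusted p = 0.0195). *HTS1*, of histidine, had 1853, 1831 and 1952 with pterostilbene and 2241, 2485 and 2511 in the controls, with a log2 difference of -0.36 (SE 0.10, adjusted p = 0.0279). The probe sets do not separate transcripts for the mitochondrial form from those for the cytosolic form. Without these genes, 13 of 15 cytosolic genes fell with a median log2 difference of -0.63, and without *ARC1* 16 of 18 did with a median of -0.58.

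The leucine and isoleucine enzymes were the cytosolic ones that did not pass the test. *CDC60*, the cytosolic leucyl-tRNA synthetase, had 1046, 1195 and 1392 with pterostilbene and 1482, 1578 and 1225 in the controls, with a log2 difference of -0.24 (SE 0.16, adjusted p = 0.266). *ILS1*, the cytosolic isoleucyl-tRNA synthetase, had 2358, 2455 and 2730.3 with pterostilbene and 2526, 2262 and 2041 in the controls, with a log2 difference of 0.15 (SE 0.12, adjusted p = 0.372). In both genes the groups overlapped, and *ILS1* was the only cytosolic gene with a positive difference. The difference of *CDC60* was negative under every setting of the processing, from -0.69 to -0.11. This gene was called lower after median centring (adjusted p = 0.0114). Signals of all treated cultures lay below all controls in the other 17 cytosolic genes, as they did in 24.5% of all genes.

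For 12 amino acids each compartment has its own enzyme gene on the lists, and here the mitochondrial gene could be set against its cytosolic partner on the same array. The log2 signal of the cytosolic gene was subtracted from that of the mitochondrial gene within each array, a value that a scale factor of the array does not move. The change in this value, pterostilbene minus control, was positive for all 12 amino acids, with a median of 1.21 and a range from 0.12 to 2.24 on the log2 scale. Quantile normalization, which is not a scale factor, lowered the median to 0.64 and made the change negative for isoleucine (-0.45), serine (-0.40) and asparagine (-0.01). With the deposited signals the groups did not overlap in 10 of the 12. Each of these 10 had the smallest exact two-sided permutation p possible, 0.1 (0.12 after Benjamini-Hochberg adjustment over the 12), so that this design could not reach 0.05.

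The change was largest for tyrosine (2.24, SE 0.24), where the treated cultures lay 2.10, 2.31 and 2.31 above the control mean and the controls at 0.31, 0.14 and -0.45. Phenylalanine (1.95, SE 0.16), lysine (1.87, SE 0.13) and aspartate (1.63, SE 0.18) followed. In these pairs both partners passed the test in opposite directions, as they did for glutamate (1.44, SE 0.21). For leucine (1.23, SE 0.14) only *NAM2* passed. For threonine (1.20, SE 0.24), tryptophan (1.12, SE 0.23), asparagine (0.81, SE 0.37) and methionine (0.74, SE 0.21), only the cytosolic gene passed. For serine (0.48, SE 0.38, exact permutation p = 0.4) the treated cultures lay at 0.60, 1.03 and -0.20 and the controls at -0.04, 0.20 and -0.16, so the groups overlapped. For isoleucine (0.12, SE 0.11, exact permutation p = 0.3) the treated cultures lay at 0.06, 0.04 and 0.25, close to the controls at -0.08, -0.09 and 0.17.

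**Figure D3:**
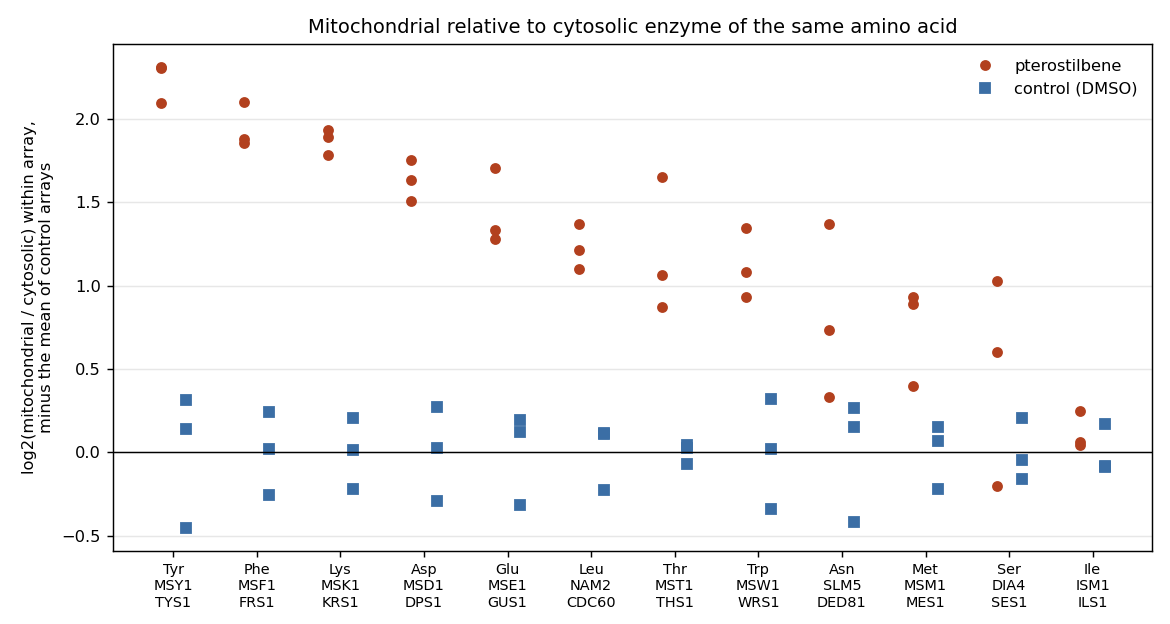
Log2 signal of the mitochondrial gene minus that of the cytosolic gene of the same amino acid within each array, plotted relative to the mean of the 3 control arrays. Circles are pterostilbene arrays and squares are control arrays, with the gene names of each pair under the axis. All circles lie above all squares in 10 pairs, from tyrosine at 2.24 to methionine at 0.74, and the groups overlap for serine and isoleucine.

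How many genes were called in each list depended on the scaling of the arrays. The median over the mitochondrial list minus that over the cytosolic list, relative to the controls, was 1.12, 1.33 and 1.45 on the pterostilbene arrays and -0.02, 0.05 and 0.10 on the control arrays. Centring an array does not move this value. After quantile normalization, which gives every array the same distribution of signals, it was 0.73, 0.70 and 0.98 on the pterostilbene arrays and -0.04, 0.08 and 0.07 on the control arrays. Quantile normalization moved the median of all genes to -0.13, and it left 14 cytosolic genes lower (30.4% of all genes) and 4 mitochondrial genes higher (21.6% of all genes). Centring on the array median moved the median of all genes to -0.23, with 18 cytosolic genes lower (39% of all genes) and 4 mitochondrial genes higher (19.3% of all genes). Centring on 5 reference genes moved it to 0.36, with 15 cytosolic genes lower (14.5% of all genes) and 9 mitochondrial genes higher (43.7% of all genes). After median centring the mitochondrial median alone was 0.08, 0.29 and 0.37 on the pterostilbene arrays and -0.07, 0.05 and 0.15 on the control arrays, so the groups overlapped, and 6 of the 13 mitochondrial differences were negative, as 6 were after quantile normalization. No cytosolic gene was called higher and no mitochondrial gene lower under any of the 4 scalings. Calls aside, after quantile normalization all treated cultures lay below all controls in 3 mitochondrial genes and above them in 7. After median centring they lay below in 1 mitochondrial gene and above in 5. After reference gene centring they lay above in 1 cytosolic gene and below in 17.

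Some members kept their call under all 4 scalings. They were 14 cytosolic genes, which leaves out *GRS1*, *HTS1* and *KRS1* of those that fell, and 3 mitochondrial genes, *MSK1*, *MSY1* and *NAM2*. *GRS1* had an adjusted p of 0.116 after quantile normalization. *HTS1* had 0.0939 after quantile normalization and 0.0911 after reference gene centring, and *KRS1* had 0.554 and 0.115 under these settings. Of the mitochondrial genes, *MSD1* and *MSE1* did not pass after quantile normalization (adjusted p = 0.11 and 0.166) or median centring (0.131 and 0.0894), *MSF1* did not pass after quantile normalization (0.117), and *MSR1* did not pass after median centring (0.141). *CDC60* passed after median centring (-0.69, adjusted p = 0.0114), and *MST1* and *ISM1* passed after reference gene centring (adjusted p = 0.0492 and 0.0352).

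**Figure D4:**
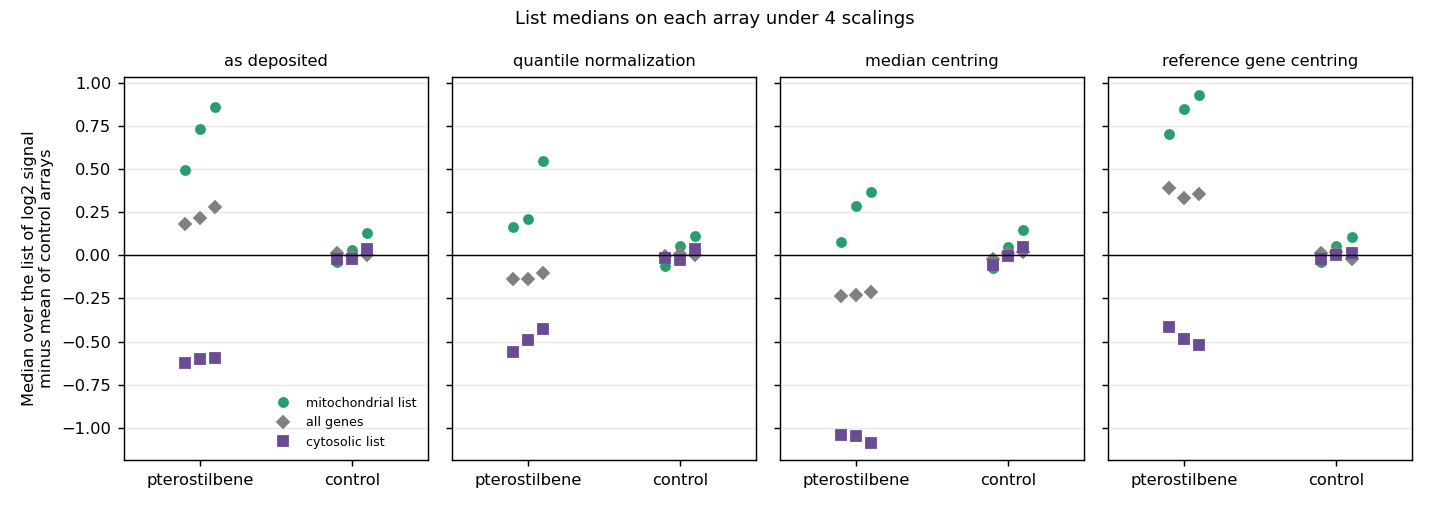
Median log2 signal of the mitochondrial list (circles), all genes (diamonds) and the cytosolic list (squares) on each array, relative to the mean of the control arrays, with the deposited signals and after quantile normalization, median centring and reference gene centring. On every pterostilbene array the mitochondrial median lies above that of all genes and the cytosolic median below it. Centring shifts all medians of an array alike, whereas quantile normalization also narrows the gap between the lists.

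The lists also differed in how bright their probe sets were, and on these arrays the change of a gene went with its brightness. Genes were ranked by mean log2 signal over all arrays and split into 10 bins of equal size, bin 1 being the dimmest. In bin 10 the median log2 difference of all genes was -0.37 and 51.2% were called lower, while in bin 3 the median was 0.29 and 39.6% were called higher. Of the cytosolic genes, 13 lay in bin 10, 5 in bin 9 and *GLN4* in bin 6. The mitochondrial genes lay in bins 1 to 7, with 6 of them in bin 3. Brightness differs between probe sets for reasons other than the amount of RNA, so it does not rank the transcripts.

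Within bin 10, 12 of the 13 cytosolic genes fell, and in bin 9, where 33.6% of all genes were lower and the median was -0.10, 4 of 5 fell. In bin 3, 3 of the 6 mitochondrial genes rose. Relative to the median of its own bin, the log2 difference was lower in 16 of 19 cytosolic genes, the exceptions being *ILS1*, *KRS1* and *HTS1*. It was higher in 7 of 13 mitochondrial genes, the same 7 that rose. By definition, as many genes of a bin lie above its median as below it, so 7 of 13 is close to an even split. The median deviation from the bin medians was -0.40 over the cytosolic list and 0.52 over the mitochondrial list. The mitochondrial value was that of *MSR1*, the smallest excess among the 7 genes that rose. The other 6 mitochondrial genes lay below the medians of their bins, so 0.52 does not describe them. Subtracting the medians of the bins from both partners of a pair left 1.85 for tyrosine and 1.30 for lysine, while the changes for methionine (0.08) and asparagine (0.00) were near 0 and those for isoleucine (-0.64) and serine (-0.63) turned negative. The part of brightness in these differences was not tested further.

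**Figure D5:**
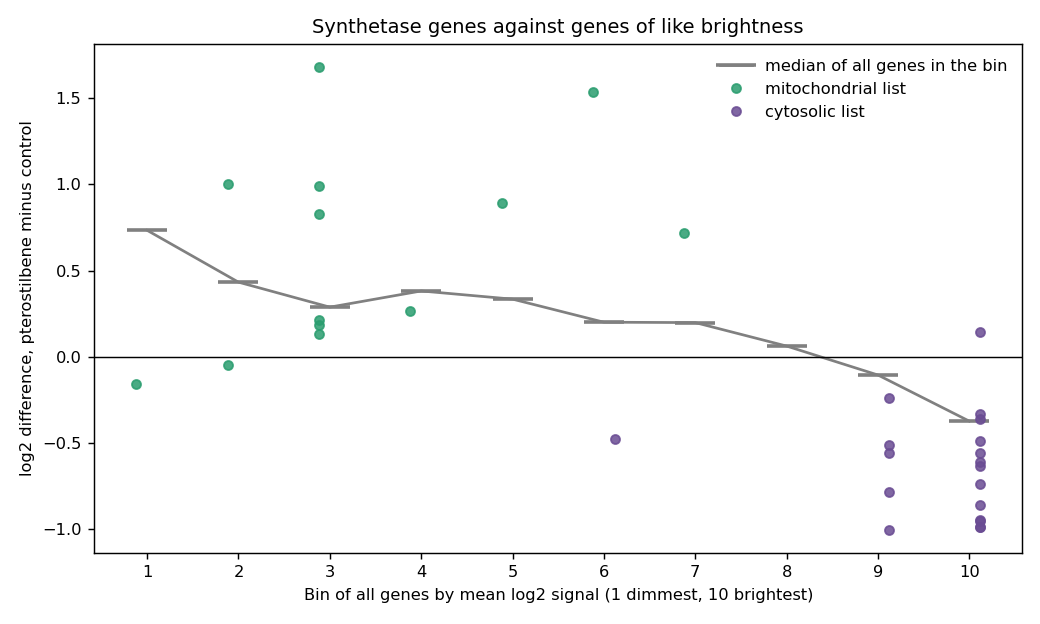
Log2 difference, pterostilbene minus control, of each synthetase gene against its bin, 1 to 10, in the ranking of all genes by mean log2 signal, with the median of all genes in each bin as a grey line. The line falls to -0.37 in bin 10. Of the 19 purple cytosolic points 16 lie below the line in their bin, and of the 13 green mitochondrial points 7 lie above it. By definition, as many genes of a bin lie above the line as below it.

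Replicates were closer to each other in the bright cytosolic genes. The median standard deviation of log2 signals was 0.08 with pterostilbene and 0.09 in the controls over the cytosolic list, against 0.19 with pterostilbene and 0.20 in the controls over the mitochondrial list. *KRS1* (-0.33) and *HTS1* (-0.36) passed the test, whereas *ISM1* (0.26) did not.

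Another 5 synthetase genes outside the lists were looked at as well. *YDR341C*, the cytosolic arginyl-tRNA synthetase, fell, with 3165, 2957 and 3642 with pterostilbene and 5430.2, 5247 and 5188 in the controls, a log2 difference of -0.71 (SE 0.11, adjusted p = 0.00457). Set against it within arrays, *MSR1* was higher with pterostilbene by 1.42 (SE 0.14) without overlap of the groups (exact two-sided permutation p = 0.1). For proline the groups overlapped. *YHR020W*, the cytosolic enzyme, had a log2 difference of -0.20 (adjusted p = 0.412) and *AIM10*, the probable mitochondrial enzyme, 0.12 (adjusted p = 0.579). *CRS1*, of cysteine, averaged 326.3 ± 25.2 with pterostilbene and 451.8 ± 78.4 in the controls (SD, n = 3 each) and did not pass the test (adjusted p = 0.0634). Its treated cultures all lay below the controls, as in 24.5% of all genes. It was called lower after quantile normalization (30.4% of all genes) and after median centring (39% of all genes).

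Glycine has a second, little expressed gene, *GRS2*, a paralog of *GRS1*. *GRS2* rose, with 221.5, 254.8 and 296.3 with pterostilbene and 172, 170.4 and 157.6 in the controls, a log2 difference of 0.62 (SE 0.14, adjusted p = 0.0137). It moved against *GRS1*, and within arrays *GRS2* minus *GRS1* was higher with pterostilbene by 1.1 (SE 0.07) without overlap (exact two-sided permutation p = 0.1). The rise of *GRS2* was not called after quantile normalization or median centring, while the groups stayed apart in the difference from *GRS1*, at 0.53 after quantile normalization. Hybridization of each transcript to the probe set of its paralog was not tested.

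Mitochondria make their charged glutamine tRNA by another route, in which the tRNA is first loaded with glutamate and an amidotransferase then converts the amino acid. All 3 subunit genes of this amidotransferase rose, where 35.8% of all genes did and 41.9% to 44.5% of those in the brightness bins of these genes. *HER2* averaged 204.4 ± 34.2 with pterostilbene and 94.6 ± 22.95 in the controls (SD, n = 3 each), with a log2 difference of 1.13 (adjusted p = 0.0112). *PET112* had a log2 difference of 1.02 (adjusted p = 0.0161) and *GTF1* 0.88 (adjusted p = 0.00302). The control mean of *PET112*, 35.8, lay within the range of probe sets without yeast sequence, which reached 36.6 on the control arrays. *GTF1* was called under all 4 scalings, *HER2* not after quantile normalization and *PET112* not after quantile normalization or median centring. *GLN4*, which charges glutamine in the cytosol, fell (-0.48).

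Of 12 genes of mitochondrial translation factors and tRNA modification, 9 rose and none fell, where 35.8% of all genes rose, and the median log2 difference was 1.01. *IFM1*, the mitochondrial initiation factor, had a log2 difference of 1.86 (adjusted p = 0.000263), *MTO1*, of mitochondrial tRNA modification, 1.59 (adjusted p = 0.000218), *RRF1*, the ribosome recycling factor, 1.47 (adjusted p = 0.00318) and *MEF1*, an elongation factor, 1.36 (adjusted p = 0.00339). In the controls *IFM1* averaged 42.6 and *RRF1* 48.9, near 36.6, the highest signal of probe sets without yeast sequence on those arrays. Their folds thus rest in part on dim spots, whereas *MTO1* and *MEF1* averaged 136.9 and 224.9 in the controls. Those that did not pass were *FMT1*, *TUF1* and *SLM3*. After quantile normalization or median centring 5 of the 12 were called higher and 1, *FMT1*, lower, where 21.6% and 19.3% of all genes were higher.

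Genes of tRNA maturation and modification did not share 1 direction. Of 40 measured, 6 rose and 12 fell, where 35.8% of all genes rose and 18.4% fell, and 22 did not pass. The median log2 difference was -0.14. Those that rose were *TAD2*, which encodes a subunit of the tRNA adenosine deaminase (1.77), *LOS1*, the nuclear exporter of tRNA (1.28), *SMM1*, a dihydrouridine synthase (0.67), *SEN15*, of the tRNA splicing endonuclease (0.61), *TRM2*, a tRNA methyltransferase (0.59), and *POP1*, of RNase P (0.46). The deepest falls were in *SEN54*, another subunit of the splicing endonuclease (-1.44), and *GCD10*, of a tRNA methyltransferase (-0.79). These counts moved with the scaling. Quantile normalization gave 4 higher and 24 lower (21.6% and 30.4% of all genes), median centring gave 2 higher and 25 lower (19.3% and 39% of all genes), and reference gene centring gave 11 higher and 8 lower (43.7% and 14.5% of all genes).

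Factors that take up charged tRNA, or sense uncharged tRNA, were mixed. Of 9 genes of cytosolic elongation, 5 had a probe set of a single gene. *TEF4*, of elongation factor 1B, fell (-1.23, adjusted p = 0.000438), as did *YEF3*, elongation factor 3 (-0.41, adjusted p = 0.0137), whereas its paralog *HEF3* rose (2.06, adjusted p = 0.000641). The call of *YEF3* was lost after quantile normalization. *HEF3* averaged 177 with pterostilbene and 42.9 in the controls, where probe sets without yeast sequence reached 36.6. Hybridization of the *YEF3* transcript to the *HEF3* probe set was not tested. *GCN2*, the kinase that senses uncharged tRNA, and *GCN4*, the transcription factor whose translation it controls, did not pass the test (0.34 with adjusted p = 0.0801, and 0.13 with adjusted p = 0.292). *GCN2* was called higher after reference gene centring, and *GCN4* was called higher after quantile normalization and lower after median centring. Of 6 genes of this sensing pathway 1 rose and 2 fell, where 35.8% of all genes rose and 18.4% fell. The Gcn2p activators *GCN20* (-0.86, adjusted p = 0.00303) and *GCN1* (-0.66, adjusted p = 0.0137) fell, and *GIR2* rose (0.56, adjusted p = 0.00607), though not after quantile normalization or median centring.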

How the data were processed

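The deposited table gives a linear intensity signal for every probe set on every array, computed by the authors with Affymetrix software, which the submitters' processing notes name as GCOS 1.1. The algorithm, background correction and scaling target are not given in the sources used here. Control probe sets (60) were left out, 23 signals of 0 were raised to 0.1, and log2 signals of 9275 probe sets on all 6 arrays were fitted with limma 3.58.1 (lmFit, eBayes) in R 4.3.3, with Benjamini-Hochberg adjustment over all probe sets. Symbols came from the platform annotation and the RefSeq gene table, over 6504 probe sets of a single gene. Where a gene had several probe sets the brightest by mean log2 signal was used. Arrays were grouped by their titles. Replicate letters were not treated as pairs, since deviations of arrays with the same letter correlated by -0.094 to -0.016. The fit was tested on simulated data.

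The members and gene lists were chosen with earlier results of these data known. Every member is named. Of related lists the 4 genes with the largest change that passed, and those that passed against the list's direction, are named. *TUF1*, *SLM3*, *FMT1*, *GCN2*, *GCN4*, *CRS1*, *YHR020W* and *AIM10* were named outside this rule after their values were seen. Reference genes were *ACT1*, *ALG9*, *TAF10*, *TFC1* and *UBC6*. The planned search of promoters for the Gcn4p site and the alignment of proteins were not run. Precision is limited by the number of arrays, and intensities give no count of molecules.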

Additional observations from a re-analysis of the deposited data

How the results depend on the processing

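Over 15 other settings of the processing, no cytosolic synthetase was called higher and no mitochondrial synthetase lower. All 32 members kept their call and direction when a pseudocount of 8.7 was added, when the dimmest 25% of probe sets were left out, with the methods' t-test on the same log2 values, with trend and robust moderation, and when probe sets of a gene were averaged. Scaling mattered more. Of all probe sets, 3105 were higher and 1295 lower with the deposited signals, against 1799 higher and 2272 lower by quantile normalization and 1760 higher and 2856 lower by median centring, while reference gene centring went the other way with 3720 higher and 1014 lower. The cytosolic median of -0.61 became -0.50 by quantile normalization, -1.06 by median centring and -0.48 by reference gene centring. For the mitochondrial list quantile normalization moved the median of 0.72 to 0.31 and median centring moved it to 0.26, with 4 genes called higher under each in place of 7. Signs of members that had not passed turned after quantile normalization for *MSM1* (-0.28), *MST1* (-0.33), *MSW1* (-0.40) and *ISM1* (-0.18), and after median centring for *ILS1* (-0.31), *MSM1* (-0.27), *MST1* (-0.24), *MSW1* (-0.32) and *ISM1* (-0.19). *SLM5* turned to 0.082 after reference gene centring. Among the within-array pairs, quantile normalization left 8 of 12 above without overlap, put isoleucine below (-0.45) and turned *SLM5* minus *DED81* to -0.010. The cause of these shifts was not tested.

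When each array was left out in turn, the cytosolic median ranged from -0.62 to -0.56, with 13 to 17 genes lower, and 7 mitochondrial genes stayed higher each time. The calls lost were those of *KRS1* without any of the arrays but pterostilbene C, *GRS1* without pterostilbene A or B or control A or B, *HTS1* without pterostilbene A or B or control B or C, and *GLN4* without pterostilbene A or B or control B. Log2 differences over these fits ranged from -0.22 to 0.17 for *SLM5*, from -0.44 to 0.16 for *DIA4* and from -0.042 to 0.27 for *MSW1*. A fit with the letters as a replicate block called 2533 probe sets higher and 873 lower, with 12 cytosolic genes lower and 6 mitochondrial genes higher. *GLN4*, *GRS1*, *HTS1*, *KRS1*, *THS1* and *MSE1* then did not pass the test (adjusted p = 0.0507 to 0.103).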
